A study of Mus musculus with 21 samples.

Results

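The genes described are Gabra2, Gabra3, Gabra4, Gabra5, Gabrb1, Gabrb2 and Gabrd, 7 subunits of the GABA-A receptor, taken by symbol from a table of 55487 genes measured by RNA sequencing of the mouse hippocampus. The symbols cover 4 alpha, 2 beta and 1 delta subunit, all 7 were found, and all 7 passed the filter on low counts. The mice were male wild type C57BL/6, killed at 10 weeks of age, and 1 poly-A library was made from each. In the maternal separation group (MS, 9 mice), whole nests were taken from the dam for 4 h each day from postnatal day (PND) 10 to PND 17, and the nesting material in the home cage was reduced. In the standard rearing group (SR, 12 mice) this was not done. No gene was altered in either group, and separation and less nesting material came together, so that their parts cannot be told apart. Animal numbers fell into 7 sets of 3 consecutive numbers, each of 1 condition (sets A to C for MS, D to G for SR). By the study's methods, littermates of the same sex shared cages of 3 after weaning, but the labels tie no mouse to a cage or nest, so p-values measure the spread between mice that may share one.

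GABA-A receptors are chloride channels, assembled from several subunits, that open when GABA, the main inhibitory transmitter of the adult brain, binds between a beta and an alpha subunit. The alpha subunit sets much of the pharmacology of the receptor, including which benzodiazepine effects it mediates. Receptors with a gamma subunit sit mostly at synapses and carry brief inhibition, while receptors with delta, and many with alpha5, lie outside synapses and carry a steady, tonic inhibition. In the hippocampus alpha5 is known for pyramidal cells of the CA fields, and delta paired with alpha4 for granule cells of the dentate gyrus.

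Gabra2, Gabra4 and Gabrb1 lie in 1 cluster on chromosome 5. In GENCODE M21 (GRCm38), Gabra2 (ENSMUSG00000000560) spans 70957597 to 71095849 on the minus strand, Gabra4 (ENSMUSG00000029211) 71569749 to 71658308 on the minus strand, and Gabrb1 (ENSMUSG00000029212) 71658113 to 72149037 on the plus strand. Gabra4 and Gabrb1 stand head to head and overlap by 196 bases, of which 46 are exonic in both. Gabra5 (ENSMUSG00000055078) lies on chromosome 7 at 57407672 to 57510059, minus strand, and shares 90368 bases with another subunit gene on the opposite strand, 0 of them exonic in both. It also shares 148 exonic bases with the antisense gene Gm9962, which had 17 to 64 counts per library. Gabra3 (ENSMUSG00000031343) lies on chromosome X at 72432681 to 72656848, minus strand, Gabrb2 (ENSMUSG00000007653) on chromosome 11 at 42419757 to 42629028, plus strand, and Gabrd (ENSMUSG00000029054) on chromosome 4 at 155384980 to 155398112, minus strand. Whether reads were counted by strand is not given in the sources used here, so reads from the shared bases cannot be assigned with certainty.

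The 250 bases upstream of a start site are shown for 3 alpha subunit genes, whose levels had opposite relations to the dentate granule markers from mouse to mouse (positive for Gabra2 and Gabra5, negative for Gabra3, as described further on). The sequences are from RefSeq (GRCm38.p6), 5′ to 3′ on the strand of the gene, with motif matches in capitals: a GC box (GGGCGG) in Gabra2 and a TATA motif (TATAA) in Gabra3, read on either strand. The Gabra2 window is chr5:71095850-71096099, minus strand, the Gabra3 window chrX:72656920-72657169, minus strand, and the Gabra5 window chr7:57510060-57510309, minus strand.
Gabra2: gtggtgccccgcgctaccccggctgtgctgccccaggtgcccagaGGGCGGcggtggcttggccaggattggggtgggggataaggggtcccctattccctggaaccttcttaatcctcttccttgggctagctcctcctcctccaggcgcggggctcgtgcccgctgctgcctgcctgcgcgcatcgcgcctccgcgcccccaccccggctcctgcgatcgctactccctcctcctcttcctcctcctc
Gabra3: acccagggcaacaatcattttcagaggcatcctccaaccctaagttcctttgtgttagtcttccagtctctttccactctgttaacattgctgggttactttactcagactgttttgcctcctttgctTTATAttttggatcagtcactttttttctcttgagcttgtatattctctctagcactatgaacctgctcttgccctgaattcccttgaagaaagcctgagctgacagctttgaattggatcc
Gabra5: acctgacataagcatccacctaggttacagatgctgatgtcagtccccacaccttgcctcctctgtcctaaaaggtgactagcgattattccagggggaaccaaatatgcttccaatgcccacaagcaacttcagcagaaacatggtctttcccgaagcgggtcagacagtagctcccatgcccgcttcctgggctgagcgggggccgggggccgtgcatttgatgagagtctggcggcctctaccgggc
The Gabra2 window held 18 CG dinucleotides and the Gabra5 window 9, against a median of 6 over 32851 RefSeq promoters of this length. The Gabra3 window held 0. Of all these promoters 32.7% held a GC box, 22.8% a TATA motif and 17.8% the core of a CRE (TGACG), which none of the 3 windows held. These matches describe the letters of the windows and are not evidence of a bound factor.

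The libraries held 17276810 to 30449055 counts in genes. On the first principal component of the 500 most variable genes, 1 MS library (mouse A2) stood at 27.1 against −12.2 to 11.9 for the other 20, and it was left out of the comparisons, leaving 8 MS and 12 SR mice. In library A2 the summed markers of dentate granule cells were at 36.3 CPM (counts per 1000000 counts), against 221 to 505 in the other 20, and those of the striatum were at 1352 CPM against 43.6 to 451. Each marker listed for dentate granule cells (6), CA pyramidal cells (9) and interneurons (11) reached 1 CPM in at least 1 of the other 20 libraries. Markers of the choroid plexus ranged from 52.3 to 4162 CPM in MS (median 3286) and from 28.6 to 4488 CPM in SR (median 829), and their part in the results below was not tested.

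Relative levels of the subunit genes were compared within the SR mice, as CPM per kilobase of annotated exon (FPKM). Gabra5, the alpha subunit of much of the extrasynaptic receptor of pyramidal cells, stood highest at 55.4 ± 9.50 FPKM (SD, n = 12). Gabra4 was next at 14.2 ± 0.733, then Gabra3 at 13.4 ± 2.65, Gabrb1 at 13.3 ± 1.32, Gabrb2 at 13.0 ± 1.56 and Gabra2 at 12.4 ± 1.58 FPKM. Gabrd, the delta subunit, was lowest at 9.82 ± 2.66 FPKM. Of the 6 pairs of neighbours in this order, 1 differed: Gabra5 was above Gabra4 in 12 of 12 mice, by 1.95 on the log2 scale (two-sided exact sign-flip test, p = 0.000488, Benjamini-Hochberg adjusted p over 6 pairs = 0.00293). Gabra4, Gabra3, Gabrb1, Gabrb2 and Gabra2 followed, and none of the pairs of neighbours among them passed (adjusted p = 0.597 to 0.920, exact). Genes further apart in the order were not tested against each other. Gabrd was below Gabra2 in 9 of 12 mice, by 0.37 (exact p = 0.0415, adjusted p = 0.125). The 8 MS mice gave the same highest and lowest gene, with Gabra5 at 49.9 ± 10.8 and Gabrd at 9.75 ± 2.30 FPKM.

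**Figure D1:**
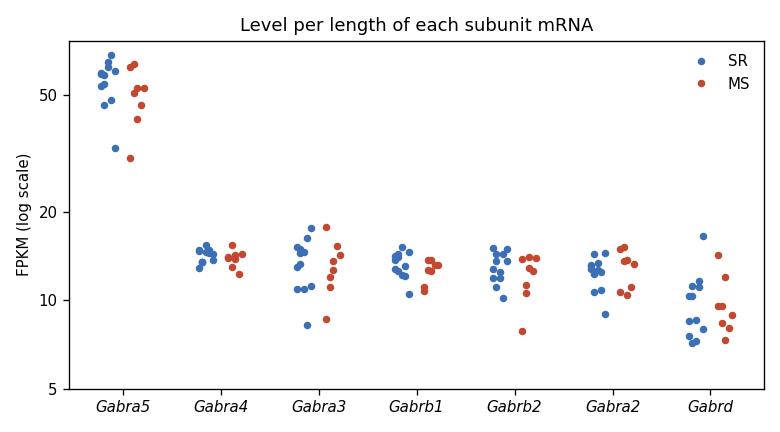
Level of each subunit gene per length (FPKM, CPM per kilobase of exon, log scale) in SR and MS mice, with 1 point per mouse. Gabra5 (55.4 FPKM on average in SR) stands above the other 6 genes, which average 9.82 to 14.2 FPKM in SR.

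The order rests on the length used. Per kilobase of coding sequence, Gabrb1 moved to the top at 129 ± 12.9 FPKM, Gabra5 followed at 119 ± 20.3 and Gabra2 at 70.1 ± 8.94, and Gabrd stayed lowest at 20.96 ± 5.67 (SD, n = 12). On this scale Gabrb1 was above Gabra5 in 8 of 12 mice, which did not pass (exact sign-flip test, adjusted p = 0.100), while Gabra5 was above Gabra2 in 12 of 12 (adjusted p = 0.00146, exact). The annotated exons of Gabrb1 cover 13838 bases, of which its coding sequence is 1422, while those of Gabra5 cover 2974 with a coding sequence of 1389. The shares that follow are per kilobase of annotated exon. Among the alpha subunits listed, Gabra5 made up 57.7 ± 5.20% of the summed FPKM in SR and 55.1 ± 6.16% in MS, with SD over 12 and 8 mice. Gabra4 made up 15.0 ± 1.40%, Gabra3 14.3 ± 4.20% and Gabra2 13.0 ± 0.945% in SR. Of the summed FPKM of both beta subunits, Gabrb1 held 50.5 ± 3.71% in SR and 51.3 ± 4.79% in MS. These shares change with the length used. In SR, Gabrb1 stood at 129 and Gabrb2 at 53.8 FPKM by coding length, and at 13.3 and 20.7 FPKM by the longest annotated transcript.

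The comparison of MS with SR asked whether separation in early life left a difference in these genes in adult mice. None of the 7 was called at an adjusted p under 0.05 (edgeR, quasi-likelihood F-test, p-values adjusted after Benjamini and Hochberg over 18146 genes), and none had an unadjusted p under 0.05. Over all genes tested, 2 were called (0.011%). DESeq2 also called 0 of the 7, with 134 of 13871 genes called (0.966%). The CPM of the groups overlapped for all 7 genes, and over all genes 2 of 18146 (0.011%) did not overlap. The fitted log2 fold change, MS over SR, was below 0 for 6 of the 7, as for 49.7% of all genes, and its median over the 7 was −0.032 against 0.00084 over all genes. In whole tissue, fewer cells of a type and less RNA per cell cannot be told apart.

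Of the genes of extrasynaptic receptors, Gabra5 had the largest fitted difference. Its lowest, median and highest values were 90.3, 154 and 189 CPM in the 8 MS mice and 98.1, 174 and 203 CPM in the 12 SR mice. The groups overlapped over most of their range, with MS mouse A1 and SR mouse E2 lowest in their groups and SR mouse F3 highest of all. The log2 fold change was −0.15 (SE 0.131, 95% interval −0.42 to 0.12, edgeR adjusted p = 0.702). Gabrd had its lowest, median and highest values at 21.1, 26.5 and 41.1 CPM in MS and at 20.5, 27.1 and 47.5 CPM in SR. Mice A1 and E2, lowest in Gabra5, were the highest of their groups in Gabrd, and all 8 MS values lay within the range of SR. The log2 fold change of Gabrd was −0.0096 (SE 0.155, 95% interval −0.33 to 0.31, edgeR adjusted p = 0.989).

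Gabra4, the usual alpha partner of delta in granule cells, was the steadiest of the 7, with a coefficient of variation in SR of 5.18% against 27.0% for Gabrd. It had 74.8, 84.7 and 93.4 CPM as lowest, median and highest in MS and 78.5, 87.6 and 93.4 CPM in SR. The groups had nearly the same upper end and overlapped over most of their range. Of the 8 MS mice, 7 lay below the SR median, 1 of them below the lowest SR mouse, and 1 lay just above the highest. Its log2 fold change was −0.032 (SE 0.0394, 95% interval −0.11 to 0.05, edgeR adjusted p = 0.804), the narrowest interval of the 7.

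Gabra2 and Gabra3 encode alpha subunits found mostly at synapses, alpha2 being known for the synapses on the axon initial segment of pyramidal cells. Gabra2 had 79.3, 102.4 and 116 CPM as lowest, median and highest in MS and 68.7, 97.1 and 110 CPM in SR. It was the 1 member with a fitted value above 0, a log2 fold change of 0.050 (SE 0.0861, 95% interval −0.13 to 0.23, edgeR adjusted p = 0.873), and the groups overlapped. Gabra3 had 33.9, 51.5 and 69.5 CPM in MS and 32.4, 54.4 and 68.7 CPM in SR, nearly the same range. Its log2 fold change was −0.025 (SE 0.133, 95% interval −0.30 to 0.25, edgeR adjusted p = 0.966).

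The beta subunits form part of the site for GABA and are needed for assembly of the receptor. Gabrb1 had 149, 178 and 190 CPM as lowest, median and highest in MS and 145, 185 and 210 CPM in SR. Its MS values lay within the range of SR, and the log2 fold change was −0.073 (SE 0.0596, 95% interval −0.20 to 0.05, edgeR adjusted p = 0.680). Gabrb2 had 50.1, 80.7 and 89.3 CPM in MS and 64.6, 83.9 and 95.4 CPM in SR. The groups overlapped, with MS mouse C1 below every SR mouse, and the log2 fold change was −0.10 (SE 0.0944, 95% interval −0.30 to 0.09, edgeR adjusted p = 0.717).

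**Figure D2:**
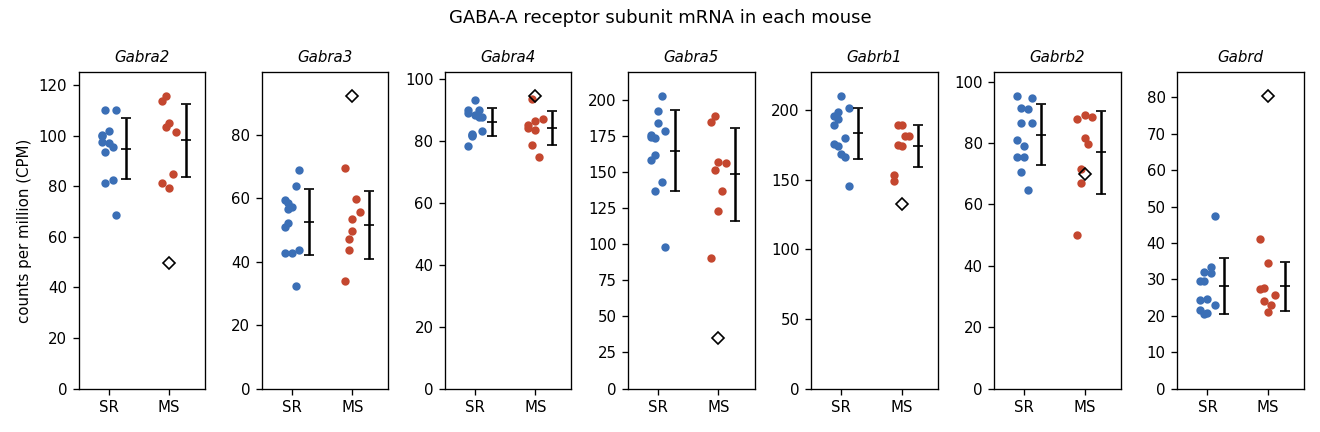
CPM of each subunit gene in each mouse, SR and MS side by side, with the mean and SD of the 12 SR and 8 MS mice as bars and the MS library left out of the tests (A2) as an open diamond. In all 7 genes the MS and SR points overlap, and over all genes 2 of 18146 (0.011%) do not overlap. Library A2, picked as the most extreme library, lies outside the other 20 for 6 genes, the exception being Gabrb2. The share of all genes outside in A2 was not counted.

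**Figure D3:**
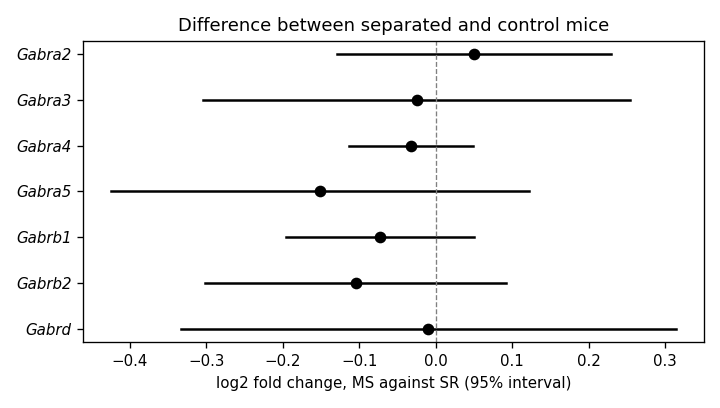
Log2 fold change, MS over SR, of each subunit gene with its 95% interval from edgeR (8 MS and 12 SR mice). All 7 intervals cross 0, the narrowest being that of Gabra4 and the widest that of Gabrd (−0.33 to 0.31).

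In the library left out, A2, 6 of the 7 genes lay outside the range of the other 20 mice, Gabra4 only just. A2 was picked beforehand as the most extreme library, and the share of all genes outside the range in it was not counted. The count of 6 therefore cannot be read as particular to these genes. Gabra5 was at 34.9 CPM, Gabra2 at 49.6 CPM and Gabrb1 at 133 CPM, each the lowest of 21. Gabrd was at 80.4 CPM, Gabra3 at 92.3 CPM and Gabra4 at 94.6 CPM, each the highest of 21, while Gabrb2 was at 69.9 CPM, inside the range of the others. The low dentate granule and high striatal markers of this library are given above. With it included, 0 of the 7 were called either, and the fitted log2 fold change of Gabrd became 0.27 (edgeR adjusted p = 0.657).

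Differences between the sets of consecutive animal numbers within a condition were tested in the same counts. None of the 7 was called (edgeR, 6 of 18146 genes called, 0.0331%), and 1 of the 7, Gabra2, had an unadjusted p under 0.05 (p = 0.0314, adjusted p = 0.510), as had 9.09% of all genes. Gabra2 averaged 111 CPM in MS set C (n = 3) against 88.5 CPM in set B (n = 3), and 106 CPM in SR set G (n = 3) against 83.6 CPM in set E (n = 3). The animal numbers also fell into a lower range (5 MS and 9 SR mice) and an upper range (3 MS and 3 SR mice), which the labels do not call batches. A separation effect that differed between the ranges was called for 0 of the 7 by edgeR (0 of 18146 genes, 0%), with DESeq2 calling 19 of 21995 genes (0.0864%), and 0 of the 7 had an unadjusted p under 0.05 in edgeR, against 8.67% of all genes. Gabra5 had a log2 fold change of −0.32 (SE 0.150) in the lower and 0.088 (SE 0.216) in the upper range, a difference of 0.41 (SE 0.263, edgeR adjusted p = 0.675). Gabrb2 had 0.024 (SE 0.105) in the lower and −0.36 (SE 0.155) in the upper range, a difference of −0.38 (SE 0.187, edgeR adjusted p = 0.586). The smallest unadjusted p of the 7 was that of Gabra4 (edgeR p = 0.0546, adjusted p = 0.585). It had −0.085 (SE 0.0459) in the lower and 0.080 (SE 0.0669) in the upper range, a difference of 0.16 (SE 0.0812). Without set C, the 3 MS mice of the upper range, Gabra5 had a log2 fold change of −0.33 with an unadjusted p of 0.0418 (edgeR adjusted p = 0.255).

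Among the 12 SR mice, the level of 4 of the 7 genes varied together with markers of hippocampal cell types. Each member's log2 CPM was correlated with the mean log2 CPM of markers of dentate granule cells, CA pyramidal cells and interneurons over the 12 SR mice, 21 relations in all, and 9 passed a two-sided permutation test at an adjusted p under 0.05. Many other genes followed these scores too: over all 18146 genes and the 3 scores, 15.2% of the relations were at least as strong as the weakest of the 9 (absolute r, 12 SR mice). By score this share was 15.8% for dentate granule, where 3 of the 7 members passed, 16.1% for CA pyramidal, where 4 passed, and 13.7% for interneuron, where 2 passed. Gabra5 followed the CA pyramidal score most closely, with Pearson's r of 0.97 and Spearman's rho of 0.87 (permutation p = 2.00e-05 and 0.00042, adjusted p = 0.00042 and 0.00441), and r was 0.85 without the 2 mice farthest from the median. It also rose with the dentate granule score (r = 0.85, rho = 0.74, permutation p = 0.00046 and 0.00746, adjusted p = 0.00343 and 0.0261, and 0.64 without the 2 farthest mice). With the interneuron score Gabra5 went down (r = −0.76, rho = −0.81, permutation p = 0.00291 and 0.00182, adjusted p = 0.0101 and 0.00955, and −0.72 without the 2 farthest mice).

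Gabra3 had the opposite signs. It went down with the dentate granule score (r = −0.86, rho = −0.85, permutation p = 0.00049 and 0.00109, adjusted p = 0.00343 and 0.00763, and −0.76 without the 2 farthest mice) and with the CA pyramidal score (r = −0.79, rho = −0.89, permutation p = 0.00336 and 0.00025, adjusted p = 0.0101 and 0.00441, and −0.92 without them). It rose with the interneuron score (r = 0.81, rho = 0.78, permutation p = 0.00132 and 0.00416, adjusted p = 0.00693 and 0.0175, and 0.59 without them). Gabra2 rose with the dentate granule score (r = 0.79, rho = 0.62, permutation p = 0.00232 and 0.0349, adjusted p = 0.00974 and 0.0917, and 0.78 without them). Its relation to the CA pyramidal score (r = 0.80, rho = 0.50, permutation p = 0.00396 and 0.0987, adjusted p = 0.0104 and 0.180) rested, in these 12 mice, on the 2 farthest, without which r was 0.26. In the 8 MS mice r was 0.94, and 0.96 without the 2 farthest. Over the 20 mice, after subtraction of condition means, r was 0.85, and 0.74 without the 2 farthest. In the 9 SR mice of the lower range of animal numbers r was 0.91, and 0.53 without the 2 farthest. Among the 12 SR mice, Gabrb2 went down with the CA pyramidal score (r = −0.68, rho = −0.73, permutation p = 0.0112 and 0.00935, adjusted p = 0.0261 and 0.028, and −0.71 without the 2 farthest mice). Gabra4, Gabrb1 and Gabrd had no relation that passed in the 12 SR mice.

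The marker scores are not independent of one another: in SR, the dentate granule and CA pyramidal scores had r = 0.90, and the interneuron score had r = −0.86 with the first and r = −0.76 with the second. A relation to 1 score therefore cannot be told apart from a relation to another. In the 8 MS mice all 9 relations had the same sign and 7 passed an exact permutation test over the 21 relations, with absolute r from 0.716 to 0.966. In the 9 SR mice of the lower range of animal numbers, all 9 had the same sign and passed, with absolute r from 0.749 to 0.980, while the upper range held 3 SR mice, too few for a correlation. In the lower range 12 relations passed, among them Gabra4 with the dentate granule score (r = 0.76, exact permutation, adjusted p = 0.0345) and the interneuron score (r = −0.86, adjusted p = 0.0152). Over the 20 mice centred by condition 15 passed. There Gabrd passed with all 3 scores by r and with none by rho. With the dentate granule score it had r = −0.56 (permutation, adjusted p = 0.0180), and −0.19 without the 2 farthest mice. Markers of the neocortex also varied, from 116 to 375 CPM in SR and from 143 to 283 CPM in MS. Those of the striatum ran from 46.6 to 282 CPM in SR and from 43.6 to 451 CPM in MS. Their relation to the 7 genes was not tested, nor how far dissection or the share of each cell type in a sample took part.

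**Figure D4:**
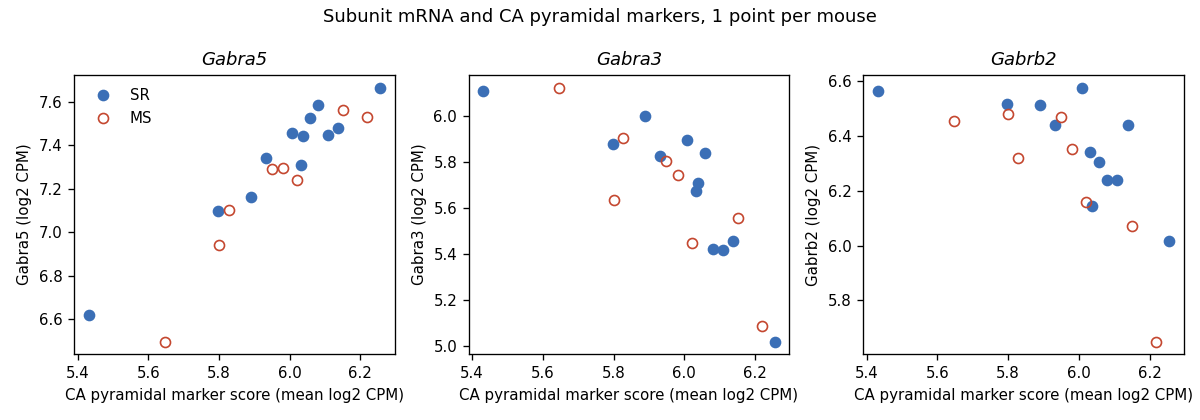
Level of Gabra5, Gabra3 and Gabrb2 (log2 CPM, vertical axes) against the CA pyramidal marker score (mean log2 CPM, horizontal axes), 1 point per mouse, filled for SR and open for MS. In the 12 SR mice Gabra5 climbs with the score (r = 0.97), while Gabra3 (r = −0.79) and Gabrb2 (r = −0.68) go down.

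Among the 21 pairs of subunit genes, 7 passed the permutation test in the 12 SR mice, 3 with a positive and 4 with a negative r, and 2 of the 7 also passed by Spearman's rho. Of the relations of all other genes tested with the 7 members, 11.2% were at least as strong as the weakest of these. Gabra2 and Gabrd went in opposite directions (r = −0.89, rho = −0.90, permutation p = 5.00e-05 and 0.00024, adjusted p = 0.00105 and 0.00504, and −0.75 without the 2 farthest mice). Gabra3 and Gabrb2 rose together (r = 0.80, rho = 0.80, permutation p = 0.00145 and 0.00248, adjusted p = 0.0101 and 0.0260, and 0.61 without them). These 2 pairs passed by both measures. Gabra2 and Gabra5, both higher where the dentate granule score was higher, had r = 0.83 (rho = 0.53, permutation p = 0.00273 and 0.0797, adjusted p = 0.0143 and 0.209), which rested on the 2 farthest mice, with r = 0.36 without them. Gabrb1 and Gabrd had r = −0.83 (rho = −0.74, permutation p = 0.00124 and 0.00806, adjusted p = 0.0101 and 0.0564, and −0.59 without them). Gabra3 with Gabra5 (r = −0.73, rho = −0.69), Gabra2 with Gabrb1 (r = 0.68, rho = 0.70) and Gabra5 with Gabrb2 (r = −0.66, rho = −0.61) had permutation p-values of 0.0088, 0.0165 and 0.0159, adjusted p = 0.0370, 0.0495 and 0.0495. In the 8 MS mice all 7 pairs had the same sign but only 1 passed, Gabra2 with Gabra5 (r = 0.88, exact permutation p = 0.000719, adjusted p = 0.0151). Without the 2 farthest MS mice, r of that pair was 0.92. Gabra4 and Gabrb1, which share a start region on opposite strands, were not among the pairs that passed.

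The genes whose levels over the 20 mice were most like those of each member, after subtraction of the mean of each condition, are given as a description. They were the 3 highest in Pearson's r outside the receptor family among the genes tested. For Gabra5 they were Lrrn2, Pkp2 and Cabp7 (r = 0.97 each), and for Gabra3 Erbb4 (r = 0.96), a neuregulin receptor, and the potassium channel genes Kcnf1 (r = 0.96) and Kcnma1 (r = 0.95). Erbb4 is also 1 of the 11 markers in the interneuron score, so its relation to Gabra3 is not separate from that of the score. For Gabra2 they were Nr4a3 (r = 0.94), an activity-induced nuclear receptor, Sertm1 (r = 0.94) and Mmd (r = 0.93). Gabrb2 was most like Xiap, Taf1 and Slc9a7 (r = 0.93 each), and Gabrb1 most like Synj1 (r = 0.91), a phosphatase of synaptic vesicle recycling, Scml4 (r = 0.90) and Rrm2b (r = 0.89). Gabrd was most like Hr (r = 0.90), Tiam2 (r = 0.90) and Dusp14 (r = 0.89). Gabra4 had the weakest partners, Rasgrp1 (r = 0.80), Fbxo11 (r = 0.76) and Mfsd11 (r = 0.76). All r share the libraries and their make-up of cells.

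Other genes of GABA signalling were read in the same fit, in lists chosen by function, and 0 were called in any list. Of 12 further genes of the receptor family, 7 passed the filter, 2 with a fitted value above 0 and 5 below. Of these 7, 2 had an unadjusted p under 0.05, both lower in MS, as had 4.92% of all genes, with a smallest adjusted p of 0.368 (edgeR). Gabrg1, a gamma subunit gene, stood at 1.99 FPKM in SR and Gabrg3 at 1.65 FPKM, both below each of the 7 members.

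Of 8 genes of GABA synthesis, packaging, uptake and breakdown, 5 had a fitted value above 0 and 3 below. In SR, Gad1, which makes GABA from glutamate, was at 38.1 FPKM and Abat, which breaks it down, at 30.2 FPKM. Aldh5a1, a later enzyme of the breakdown, had the smallest p, with a log2 fold change of −0.073 (SE 0.0336, edgeR p = 0.0398, adjusted p = 0.404), and Slc32a1, the vesicular GABA transporter, had the smallest p of those above 0, with 0.15 (SE 0.0890, edgeR adjusted p = 0.541). Of 5 genes of the GABA-B receptor, the slower receptor coupled to G proteins, and its auxiliary proteins, all 5 had a fitted value below 0. Gabbr2, a core subunit, had the smallest p, with a log2 fold change of −0.15 (SE 0.048, edgeR p = 0.00529, adjusted p = 0.232). Gabbr1 was at 88.3 FPKM, Gabbr2 at 52.3 FPKM and Kctd12, an auxiliary subunit, at 27.6 FPKM in SR.

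Of 20 genes of receptor anchoring and trafficking, 8 had a fitted value above 0 and 12 below. Gphn, which encodes the scaffold protein gephyrin of inhibitory synapses, had 65.5 ± 5.45 CPM in MS and 71.1 ± 3.77 CPM in SR (SD, 8 and 12 mice), a log2 fold change of −0.12 (SE 0.0436, edgeR p = 0.0115, adjusted p = 0.289). Gabarapl2, of the GABARAP family, had 0.11 (SE 0.0342, edgeR p = 0.00483, adjusted p = 0.230). Of the whole list, 3 genes had an unadjusted p under 0.05, 2 lower and 1 higher in MS, against 4.92% lower and 6.62% higher over all genes. Gabarapl1 at 183 FPKM, Nsf at 127 FPKM and Nlgn2 at 48.9 FPKM stood highest in SR. Of 3 genes of chloride transport, 1 had a fitted value above 0 and 2 below. The cotransporters among them set the gradient on which the channel works: Slc12a5 (KCC2, chloride export) had a log2 fold change of −0.049 (SE 0.0365, edgeR adjusted p = 0.636) and Slc12a2 (NKCC1, chloride import) 0.22 (SE 0.151, edgeR adjusted p = 0.597).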

How the data were processed

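Hippocampal poly-A RNA of 21 mice was prepared by the study with a directional kit and sequenced in pairs, and per the labels the reads were aligned with STAR 2.7.3a to GRCm38 and counted with featureCounts. The authors deposited raw read counts per gene. Here the counts were normalised by TMM, genes were filtered with filterByExpr (minimum count 10) and tested with edgeR 4.0.16 (R 4.3.3, quasi-likelihood, robust). The biological coefficient of variation was 13.3%. MS library A2 was left out by its place on the first principal component, since the study also removed 1 library by such an analysis (with hierarchical clustering). The sources used here do not say which, so it may be another one. FPKM was the CPM per kilobase of GENCODE M21 exons, and 55227 of 55487 genes had an annotation. Neighbouring levels were tested by exact sign flips within mice, and correlations by 100000 permutations, or exactly for fewer than 10 mice. Replicates of a condition differed by more than sampling noise (smallest chi-square per degree of freedom 3.58). Alternatives were DESeq2 1.42.0, limma 3.58.1 with the set as a block, other filters, scalings and lengths, and leaving out libraries or sets. The 8 MS mice and the 9 SR mice of the lower range were added for the correlations after seeing the data. The scripts were tested on simulated data.

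Members and lists were chosen with earlier results of these data known. Genes were named by rule: the 7 members, list genes with an adjusted p under 0.05, with the smallest p in each direction or with the 3 highest levels of their list, and the 3 genes most like each member. Single values of some of the genes that the rule names are not reported here. The RefSeq table used here matched 6 of the 7 members.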

Additional observations from a re-analysis of the deposited data

Results flagged for a closer look

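Gabrd in the MS library A2, at 80.4 CPM, lay far from the other 8 MS mice, which ran from 21.1 to 41.1 CPM, and was the 1 value that stood apart in 14 tests by Dixon's gap ratio (7 genes, in the MS mice with and without this library). Chance gives about 1 in 20 separate groups. That rate cannot weigh this value, because A2 was picked beforehand as the most extreme library. The groups with and without it also share their other mice. In the 8 MS mice without this library, 0 of the 7 genes held such a value, and the 12 SR mice were not put to this test. Among the SR mice, Gabrd in E2, at 47.5 CPM, lay above the next highest value, 33.3 CPM in E1. Library A2 also had the lowest Gabra5 (34.9 CPM) and dentate granule markers at 36.3 CPM, and the part of cell composition in its Gabrd level was not tested.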

How the results depend on the processing

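In each of 37 alternatives, 0 of the 7 genes were called, and 0 to 1 had an unadjusted p under 0.05. Gabra4, Gabra5 and Gabrb1 kept a fitted value below 0 in all 37. With all 21 libraries, Gabra2 was at −0.033, Gabra3 at 0.099 and Gabrd at 0.27 on the log2 scale, MS over SR. Without set C, Gabra2 was at −0.074, Gabra3 at 0.086, Gabrb2 at 0.011 and Gabrd at 0.071. Without set E, they were −0.0058 for Gabra2, 0.032 for Gabra3 and 0.14 for Gabrd. Gabrd was at 0.046 with a term for the lower or upper range, 0.0061 in limma with the set as a block and 0.016 with counts summed by set, and Gabra3 was at 0.031 with a transcript length term. Leaving out 1 mouse gave −0.10 to 0.045 for Gabra3, −0.11 to 0.083 for Gabrd, −0.21 to −0.075 (without MS mouse A1) for Gabra5, −0.14 to −0.034 (without MS mouse C1) for Gabrb2, 0.012 (without MS mouse C2) to 0.087 for Gabra2, −0.055 to −0.012 for Gabra4 and −0.10 to −0.048 for Gabrb1. The cause of these changes was not tested.

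Pairs of neighbouring levels that differed rose from 1 to 3 with the longest transcript and to 4 with coding length, which follows from the lengths used. Relations to marker scores that passed went from 9 to 15 over 20 mice centred by condition, to 8 in the 8 MS mice and to 12 in the 9 SR mice of the lower range. Pairs of subunit genes that passed went from 7 to 10, 1 and 3 in the same order. The number of mice differed between these settings, and its part was not tested. Genes called over the whole table went from 2 to 134 with DESeq2, 340 without set C and 0 to 109 when 1 mouse was left out. No paired analysis was possible because the labels give MS and SR mice no shared replicate number.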
